A study of Bos taurus with 11 samples.

Results

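Cytotoxic lymphocyte and natural killer (NK) cell transcripts were followed through the mammary gland of heifers as a set of 10 genes chosen by name: PRF1, GZMA, GZMB, GZMK, NKG7, GNLY, KLRK1, NCR1, NCR3 and CTSW. All 10 stood in the deposited table, each on 1 line, among 16279 genes. Messenger RNA had been sequenced from untreated Holstein heifers aged 10 to 12 months, and no genetic change or agent is given in the labels. Each sample came from parenchyma, which contains the epithelial ducts, from close stroma or from far stroma, regions to which the labels assign no distances. Heifers 1, 3, 4 and 5 gave parenchyma and far stroma (n = 4 for either region), and all of these but heifer 1 gave close stroma (n = 3). The series title names the comparison of stromal with parenchymal regions as the subject of the study.

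Cytotoxic T cells and NK cells kill target cells by releasing granules at the contact site. Perforin (PRF1) opens pores in the target membrane, granzymes (GZMA, GZMB and GZMK) are serine proteases that enter through them, and granulysin (GNLY, called NK-lysin in cattle) is a peptide that lyses microbial membranes. NKG7 is a granule membrane protein and CTSW (cathepsin W) a protease of the papain family, both found in cytotoxic T and NK cells in humans. KLRK1 (the receptor NKG2D), NCR1 (NKp46) and NCR3 (NKp30) are activating receptors on the cell surface. In cattle NKp46 is the marker by which NK cells are usually identified, whereas NKG2D is also carried by CD8 T cells. Mammary epithelium holds T cells lodged between its own cells, many of them CD8 T cells.

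The values are normalised counts, that is, reads per gene divided by 1 size factor per sample. Each library held 7274474 to 11156909 reads, so that 1 read was worth 0.754 to 1.61 normalised counts, and a value of 0 allows up to 3 reads by counting error. Parenchyma and far stroma differed as their names say, while close stroma carried both epithelial and adipocyte markers, the former up to the range of parenchyma. The summed level of 7 epithelial markers was 20545 to 26063 in parenchyma, 9808 to 22895 in close stroma and 194.8 to 241.3 in far stroma. That of 5 adipocyte markers was 413.8 to 496.9, 28508 to 110160 and 119450 to 152520 in the same order. Between parenchyma and far stroma 7 of 7 epithelial markers were higher and 5 of 5 adipocyte markers lower, and their part in the results was not tested. Between parenchyma and close stroma 5 of 5 adipocyte markers were lower and the 7 epithelial markers did not pass. In bulk tissue, fewer cells of a type and less RNA per cell cannot be told apart.

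Higher in parenchyma than in far stroma were 6 of the 10 genes: PRF1, GZMK, NKG7, KLRK1, CTSW and NCR3. GZMA and GNLY did not pass the test, and GZMB and NCR1 had too few reads to be tested. The increase was largest for CTSW and smallest for NCR3. Differences are of log2(value + 1), a scale that understates the change of low genes, and were tested with limma and called at an adjusted p under 0.05 over the 14596 genes whose highest region mean was at least 10. In this comparison 26.1% of all tested genes were called higher and 24% lower, and the samples of 6 of the 10 genes lay wholly above those of far stroma, against 24% of all tested genes. The median difference was 2.30 over the 8 tested genes of the set and 0.06 over all tested genes. KLRK1, GZMA and GZMK passed the filter through regions where they were high, so that these counts are a description of the set and do not support it.

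**Figure D1:**
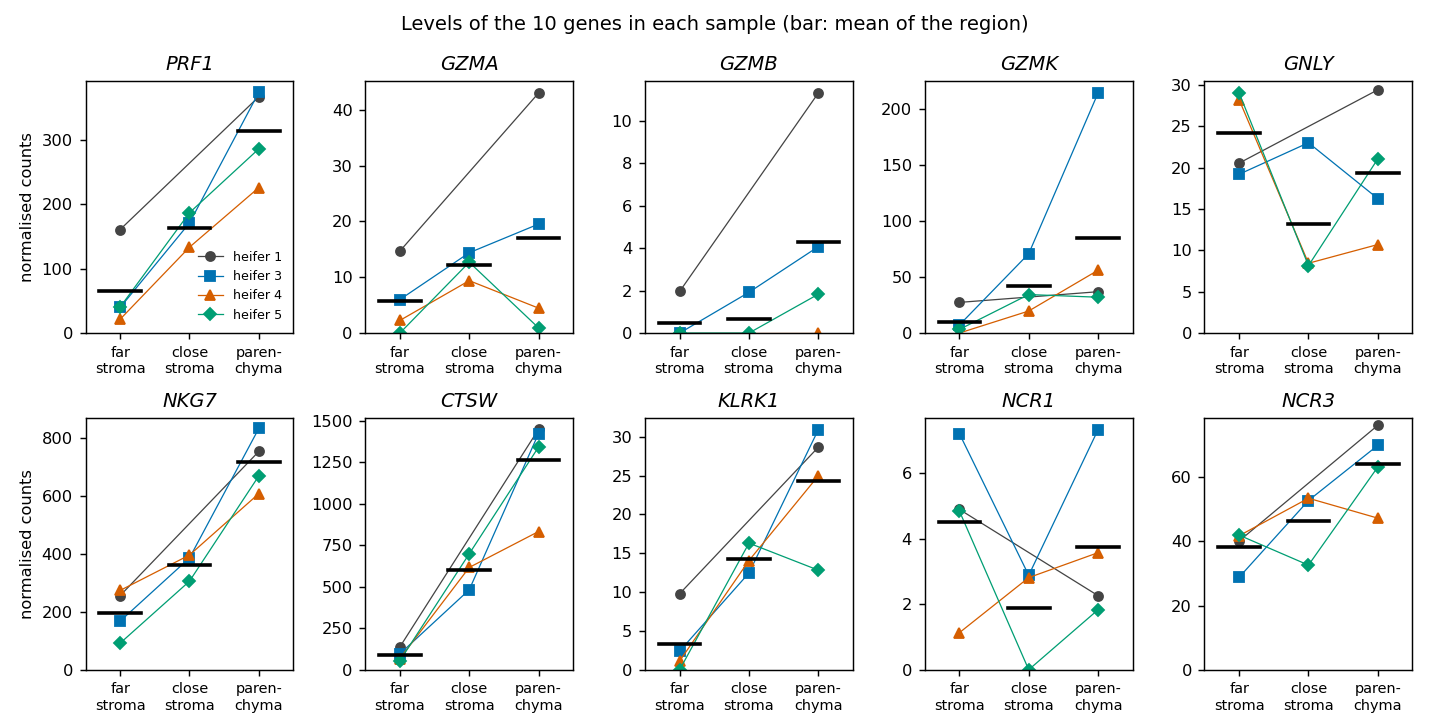
Normalised counts (vertical axis, linear from 0) of each of the 10 genes in the 11 samples by region, with symbols and thin lines for the heifers and black bars for the region means. CTSW, NKG7 and PRF1 lie highest in parenchyma in every heifer, whereas GNLY and NCR1 show no such step and GZMA and GZMB are highest in heifer 1.

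Perforin was measured in every sample. PRF1 (ENSBTAG00000001008) stood at 366, 373, 226 and 286 normalised counts in the parenchyma of heifers 1, 3, 4 and 5, at 171, 133 and 187 in close stroma (heifers 3, 4 and 5), and at 161, 39.6, 21.4 and 40.3 in the far stroma of heifers 1, 3, 4 and 5. The parenchyma samples all lay above the far stroma samples, among which that of heifer 1 was far above the others. The mean was 313 ± 70.4 (SD, n = 4) against 65.5 ± 64.0 (n = 4), a log2 difference of 2.63 ± 0.46 (SE, limma adjusted p = 0.000485, higher in 4 of 4 heifers). Without the far stroma of heifer 1 the difference was 3.20.

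The granzymes differed among themselves. GZMK (ENSBTAG00000005164), a granzyme with trypsin-like specificity, stood at 37.0, 215, 56.2 and 32.0 normalised counts in the parenchyma of heifers 1, 3, 4 and 5, at 71.0, 19.7 and 34.4 in close stroma and at 27.4, 7.20, 0 and 3.23 in far stroma. All parenchyma samples lay above all far stroma samples, the parenchyma of heifer 3 far above the rest. The log2 difference was 3.48 ± 0.89 (limma adjusted p = 0.00592, higher in 4 of 4 heifers). It rested in part on single far stroma samples, being 2.66 without that of heifer 4, which had no read, and 4.27 without that of heifer 1.

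GZMA (ENSBTAG00000021958), the other trypsin-like granzyme, stood at 43.0, 19.5, 4.46 and 0.92 normalised counts in the parenchyma of heifers 1, 3, 4 and 5, at 14.4, 9.38 and 12.7 in close stroma and at 14.7, 6.0, 2.26 and 0 in far stroma. The regions overlapped, and the 4 parenchyma samples spread more widely than the regions differed. The value in parenchyma was higher than in far stroma in 4 of 4 heifers, but the log2 difference of 1.18 ± 0.97 did not pass (limma adjusted p = 0.332, 95% interval -0.92 to 3.28). The gene next to it in RefSeq carries the symbol gzmA, so that reads of GZMA may have been shared with a close copy. GZMA also overlaps CDC20B in RefSeq annotation of a later build, a symbol absent from the deposited genes.

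Few reads came from GZMB (ENSBTAG00000010057), which cleaves after aspartate and triggers cell death. Its reads numbered 22 in parenchyma, of which 15 were from heifer 1, against 2 in close stroma and 2 in far stroma. The pooled level in parenchyma was 7.75 times that of far stroma, with a 95% exact counting interval of 1.91 to 68.0 that covers counting error only. Without the parenchyma of heifer 1 the ratio was 3.42 (interval 0.650 to 33.7). Parenchyma was the higher in 3 of 4 heifers, and heifer 4 had no read in either region. When all genes were tested regardless of level, the difference did not pass (log2 1.47 ± 0.75, limma adjusted p = 0.121).

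Granulysin did not follow the other granule genes. GNLY (ENSBTAG00000053497) stood at 29.4, 16.3, 10.7 and 21.1 normalised counts in the parenchyma of heifers 1, 3, 4 and 5, at 23.0, 8.44 and 8.15 in close stroma and at 20.6, 19.2, 28.2 and 29.0 in far stroma. Parenchyma and far stroma overlapped, and far stroma was the higher of the pair in 3 of 4 heifers. The log2 difference was -0.37 ± 0.41 (limma adjusted p = 0.47, 95% interval -1.26 to 0.51), and it was 0.03 with each library scaled to its total. That scaling moved the median of all tested genes by 0.42. Cattle carry several NK-lysin copies side by side, and the sources used here do not say how counting split reads among them.

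The samples of the granule genes NKG7 and CTSW did not overlap between regions. NKG7 (ENSBTAG00000009137), which acts in granule release in mouse T and NK cells, stood at 755, 834, 609 and 670 normalised counts in the parenchyma of heifers 1, 3, 4 and 5, at 386, 397 and 306 in close stroma and at 256, 168, 274 and 91.9 in far stroma. None of the 3 regions overlapped another. Parenchyma lay wholly above far stroma in 24% of all tested genes and wholly above close stroma in 12.8%. Close stroma lay wholly above far stroma in 14.2%. The log2 difference between parenchyma and far stroma was 1.96 ± 0.29 (limma adjusted p = 0.000125, higher in 4 of 4 heifers).

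CTSW (ENSBTAG00000020773) stood at 1450, 1424, 833 and 1343 normalised counts in the parenchyma of heifers 1, 3, 4 and 5, at 482, 617 and 699 in close stroma and at 138, 96.0, 67.7 and 54.8 in far stroma. Its 3 regions did not overlap either. The mean was 1263 ± 290 in parenchyma, 599 ± 110 in close stroma and 89.1 ± 36.8 in far stroma, and the log2 difference between the first and the last was 3.86 ± 0.28 (limma adjusted p = 3.52e-07). In RefSeq annotation of a later build, CTSW overlaps FIBP, and the sources used here do not say whether counting used strand. FIBP went the other way, with a log2 difference of -1.02 ± 0.20 (limma adjusted p = 0.00127).

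Of the activating receptors, KLRK1 was called with a large difference, NCR3 with a small one, and NCR1 was at the limit of detection. KLRK1 (ENSBTAG00000004917) stood at 28.7, 30.9, 24.96 and 12.8 normalised counts in the parenchyma of heifers 1, 3, 4 and 5, at 12.5, 14.1 and 16.3 in close stroma and at 9.79, 2.40, 1.13 and 0 in far stroma. Parenchyma and far stroma did not overlap, although far stroma held only 13 reads in all, 10 of them from heifer 1. The log2 difference was 3.02 ± 0.62 (limma adjusted p = 0.00144, higher in 4 of 4 heifers) and 3.64 without the far stroma of heifer 1.

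NCR3 (ENSBTAG00000018343) stood at 76.2, 69.9, 47.2 and 63.2 normalised counts in the parenchyma of heifers 1, 3, 4 and 5, at 52.7, 53.4 and 32.6 in close stroma and at 40.1, 28.8, 41.8 and 41.9 in far stroma. The lowest parenchyma sample lay just above the highest far stroma sample. The log2 difference of 0.73 ± 0.26 passed narrowly (limma adjusted p = 0.0353, higher in 4 of 4 heifers). It did not pass without the parenchyma of heifer 1, 3 or 5 (adjusted p = 0.0958, 0.0882 and 0.0649), without the far stroma of heifer 3 (0.0922), or with heifers 3, 4 and 5 alone (0.114). NCR3 overlaps the macrophage gene AIF1 in RefSeq annotation of a later build, and AIF1 itself had a log2 difference of 0.33 ± 0.23 (limma adjusted p = 0.243).

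NCR1 (ENSBTAG00000045529) had 18 reads in all of parenchyma, 6 in close stroma and 15 in far stroma. Its values were 2.26, 7.32, 3.57 and 1.83 normalised counts in the parenchyma of heifers 1, 3, 4 and 5 and 4.89, 7.20, 1.13 and 4.84 in their far stroma. The regions overlapped entirely, and parenchyma was the higher in 2 of 4 heifers. The pooled level in parenchyma was 0.846 times that of far stroma (95% exact counting interval 0.402 to 1.80). With all genes tested, the log2 difference was -0.19 ± 0.60 (limma adjusted p = 0.816).

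**Figure D2:**
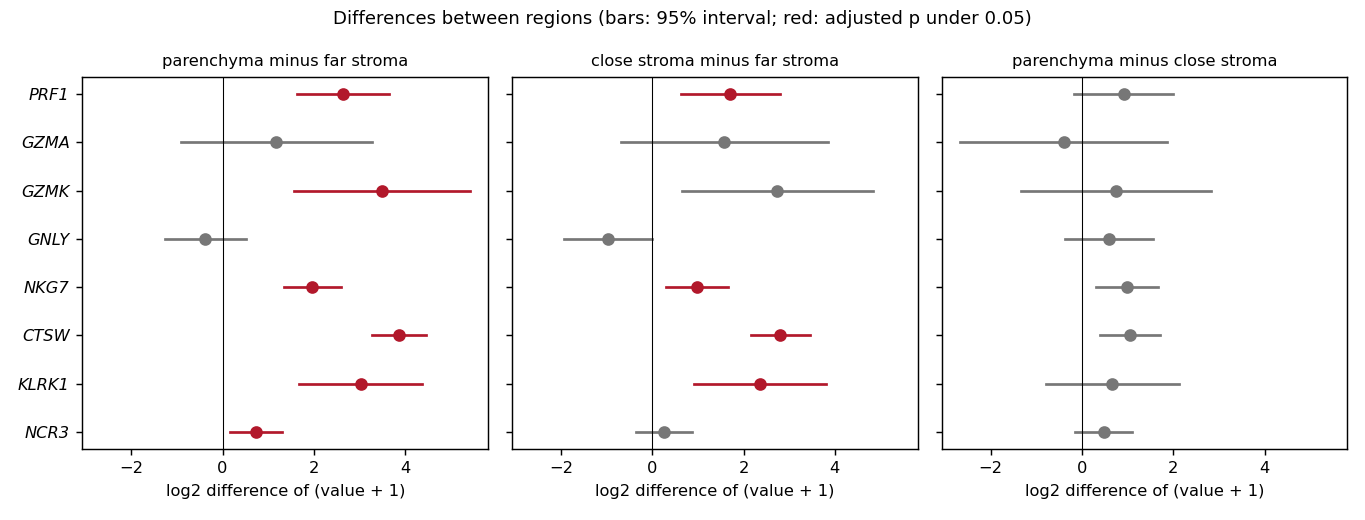
Log2 differences of (value + 1) between regions for the 8 tested genes, with dots for the estimates, bars for 95% intervals and red for an adjusted p under 0.05. The left panel has 6 red genes, the middle panel 4 and the right panel none, and GNLY is the only gene left of 0 in the left panel.

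Close stroma lay between the other regions for most of the set. Against far stroma, 4 genes were higher in close stroma, namely PRF1, NKG7, KLRK1 and CTSW, and none was lower, while 11% of all tested genes were called higher and 5.99% lower. CTSW had a log2 difference of 2.81 ± 0.30 (limma adjusted p = 3.32e-05), KLRK1 2.35 ± 0.67 (0.0305), PRF1 1.71 ± 0.50 (0.0343) and NKG7 0.99 ± 0.31 (0.0482). The samples of NKG7, KLRK1 and CTSW did not overlap, as held for 14.2% of all tested genes. CTSW alone of the 4 passed in each of the 11 fits that left out a sample and with edgeR, in which 1 gene of the set passed. Of those 11 fits NKG7 passed in 2, PRF1 in 5 and KLRK1 in 7. With the heifer as a block, GZMA (2.24, adjusted p = 0.0302) and GZMK (3.01, adjusted p = 0.0271) passed as well. GNLY was the exception in direction, at -0.96 ± 0.44 (adjusted p = 0.153, unadjusted p = 0.049), and passed without the close stroma of heifer 3 (-1.42, adjusted p = 0.0328). At an unadjusted p under 0.05, 5 genes of the set were higher and 1 was lower. The share of all tested genes was not counted at that threshold.

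Between parenchyma and close stroma no gene of the set was called by limma, where 2.02% of all tested genes were called higher and 5.1% lower. At an unadjusted p under 0.05, 2 genes were higher in parenchyma and 0 lower. These were CTSW, with a log2 difference of 1.06 ± 0.30 (adjusted p = 0.0525, 95% interval 0.41 to 1.70), and NKG7, with 0.98 ± 0.31 (adjusted p = 0.081, interval 0.30 to 1.66). CTSW was called by edgeR and both by DESeq2. The share of all tested genes was not counted at an unadjusted p, nor is it given for those tools. The samples of PRF1, NKG7 and CTSW did not overlap between these regions, as held for 12.8% of all tested genes. In the 3 heifers with all regions, PRF1, NKG7 and CTSW fell from parenchyma through close stroma to far stroma in 3 of 3, an order shown by 12.3% of all tested genes. The order held in 2 of 3 heifers for GZMK and KLRK1, in 1 for GZMA, GZMB, NCR1 and NCR3, and in none for GNLY.

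The set was next set against the T cells of the same samples. The reference was the mean log2(value + 1) of CD3D, CD3E, CD3G, CD2, CD5 and CD6, surface proteins found on T cells, though not each on every T cell. It was 8.48 to 8.94 in parenchyma, 7.62 to 7.90 in close stroma and 6.12, 5.28, 4.22 and 3.81 in the far stroma of heifers 1, 3, 4 and 5. The far stroma of heifer 1 thus had the highest T cell level of its region as well as the highest PRF1, GZMA, GZMK and KLRK1. Relative to this reference, CTSW differed between parenchyma and far stroma by a log2 of 0.05 ± 0.46 (limma adjusted p = 0.913, 95% interval -0.89 to 1.00). GZMK differed by -0.33 ± 0.65 (adjusted p = 0.629, interval -1.66 to 1.01) and KLRK1 by -0.79 ± 0.59 (adjusted p = 0.2, interval -2.002 to 0.42).

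The other 5 tested genes were lower in parenchyma relative to the T cell genes. PRF1 was lower in parenchyma relative to them by a log2 of -1.18 ± 0.46 (limma adjusted p = 0.0175), NKG7 by -1.85 ± 0.49 (0.000881), GZMA by -2.63 ± 0.78 (0.00241), NCR3 by -3.08 ± 0.53 (4.56e-06) and GNLY by -4.18 ± 0.64 (7.32e-07). On this scale 92.4% of all tested genes were called lower and 2.04% higher, so a call of lower sets none of the 5 apart from most genes. The call of PRF1 was lost without the parenchyma of heifer 4 (adjusted p = 0.0659) and with CD8A and CD8B as the reference (-0.70, 0.21). Against 5 genes of all leucocytes (PTPRC, CORO1A, LAPTM5, CD53 and ARHGDIB), PRF1 (1.05), GZMK (1.90), KLRK1 (1.44) and CTSW (2.28) were higher in parenchyma than in far stroma while GNLY and NCR3 were lower. On that scale 7.29% of all tested genes were called higher and 76.3% lower. Between close and far stroma 3 of the set were higher and 1 lower on it, with 6.31% of all tested genes called higher and 49.2% lower. Between parenchyma and close stroma, 0 of the 8 genes were called relative to the T cell genes by limma, and 0 had an unadjusted p under 0.05; edgeR and DESeq2 were not run on this scale, on which 6.86% of all tested genes were called lower and 0.0206% higher. Between close and far stroma 4 were lower and 0 higher, where 91.5% of all tested genes were called lower and 1.79% higher. The counts of the set were the same at an unadjusted p under 0.05, at which the share of all genes was not counted.

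**Figure D3:**
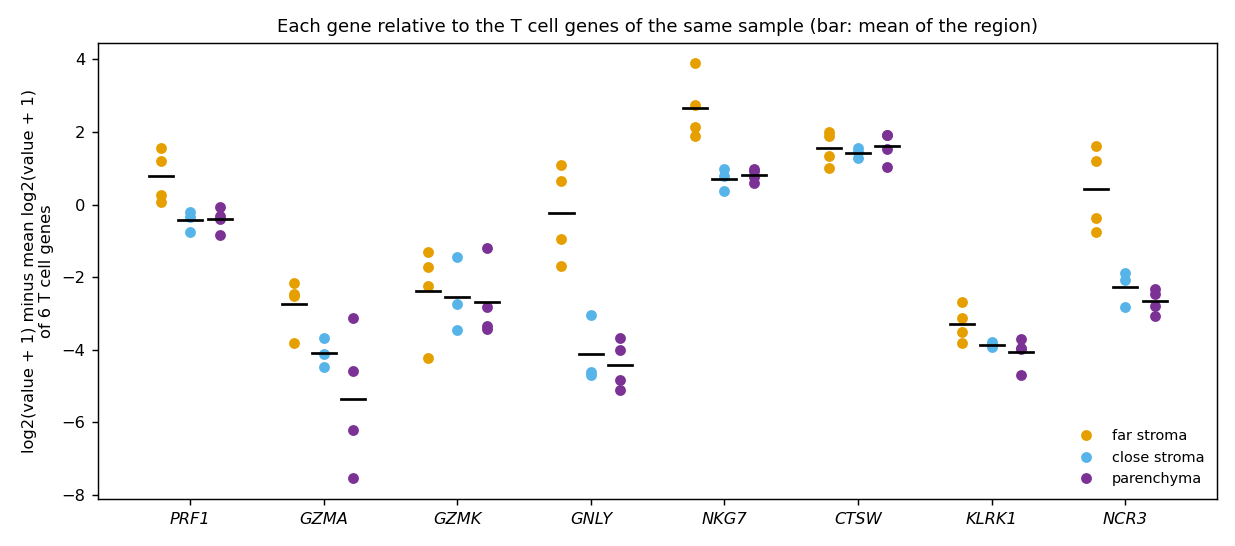
Level of each tested gene relative to 6 T cell genes of the same sample (vertical axis, difference of log2(value + 1)), by region, with points for samples and bars for region means. CTSW, GZMK, KLRK1 and GZMA overlap between parenchyma and far stroma, whereas all 4 far stroma samples of PRF1, NKG7, GNLY and NCR3 lie above all parenchyma samples. On this scale 92.4% of all tested genes were called lower in parenchyma than in far stroma. The share of all genes without overlap was not counted on it, so the separation cannot be judged against all genes.

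T cell genes and the CD8 and CD4 coreceptors were higher in parenchyma than in far stroma. All 9 genes of the T cell core were called in that comparison, and 1 of 9 between parenchyma and close stroma. The first comparison had a median log2 difference of 3.59, and CD3E averaged 2012 ± 253 normalised counts in parenchyma, 988 ± 84.9 in close stroma and 145 ± 102 in far stroma. CD8A, a coreceptor of cytotoxic T cells, averaged 433 ± 125, 232 ± 10.2 and 48.8 ± 40.8 in that order, with a log2 difference between parenchyma and far stroma of 3.40 ± 0.43 (limma adjusted p = 3.65e-05). The differences of CD8B and of CD4, the coreceptor of helper T cells, were 3.25 ± 0.47 and 2.52 ± 0.28. Relative to the T cell reference, CD8A did not pass (-0.41 ± 0.45, adjusted p = 0.378) and CD4 was lower (-1.29 ± 0.45, adjusted p = 0.00852). A call of lower was shared there by 92.4% of all tested genes, so it does not set CD4 apart.

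Of 10 other tested effector genes, 8 were higher in parenchyma than in far stroma, 1 was lower and 1 did not pass (median log2 2.97). The chemokine CCL5, stored in granules of cytotoxic cells, averaged 1213 ± 84.3 normalised counts against 119 ± 69.7 (log2 3.49 ± 0.31), and the death ligand FASLG 88.7 ± 36.6 against 6.93 ± 3.58 (3.52 ± 0.46). The granule inhibitor CST7 differed by 3.33 ± 0.39 and the chemokine XCL1 by 3.90 ± 0.58. The lower gene was the granule proteoglycan SRGN (-1.09), which many myeloid and endothelial cells make too. Interferon gamma (IFNG) had 27 reads in parenchyma and 2 in far stroma, a pooled ratio of 9.51 (95% exact counting interval 2.39 to 82.5). Of the 27 reads 18 were from heifer 1, without whose parenchyma the ratio was 4.39 (interval 0.909 to 41.8).

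Of 21 other NK receptors and adaptors listed, 15 were among the deposited genes and 13 were tested. Of the 13 tested genes 9 were higher in parenchyma than in far stroma, 1 was lower and 3 did not pass (median log2 2.72). The receptor CD96 averaged 457 ± 131 normalised counts in parenchyma against 18.8 ± 17.6 (log2 5.09 ± 0.63), CD244 differed by 2.72 ± 0.31 and SLAMF7 by 2.22 ± 0.27. These 3 are carried by T cells as well as NK cells. The lectin-like receptor gene KLRJ1 had 616 reads in parenchyma and 1 in far stroma (pooled ratio 434, 95% exact counting interval 77.6 to 17170). Of the 616 reads 451 were from heifer 4, without which the ratio was 152. The fitted log2 difference of KLRJ1 was 5.88 ± 0.78. KLRB1 had 22 reads against 2 (pooled ratio 7.75, interval 1.91 to 68.0), of which 13 were from the parenchyma of heifer 1, and without that sample the ratio was 4.39 (0.909 to 41.8). The lower gene was the adhesion molecule NCAM1 (-2.90), which nerve cells make too. The adaptors TYROBP and FCER1G and the Fc receptor FCGR3A, which NK cells share with myeloid cells, did not pass (0.68, -0.22 and -0.40), and TYROBP passed with library-total scaling or without the far stroma of heifer 4.

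Transcription factors of cytotoxic lymphocytes were higher for 6 of 9 tested genes and lower for 2 (median log2 2.29). TBX21, which drives perforin and interferon gamma expression, averaged 178 ± 32.5 normalised counts in parenchyma, 76.4 ± 9.52 in close stroma and 36.6 ± 12.4 in far stroma (parenchyma against far stroma, log2 2.29 ± 0.26). EOMES, its relative in NK cells and CD8 T cells, differed by 3.75 ± 0.52, RUNX3 by 3.80 ± 0.42 and ZNF683, a factor of resident T cells in humans, by 3.99 ± 0.47. The lower genes, ID2 (-0.92) and ZEB2 (-1.39), are not confined to lymphocytes, and ZEB2 did not pass with library-total scaling. Relative to the T cell reference, TBX21 was lower (-1.52 ± 0.45, adjusted p = 0.00273) and EOMES did not pass (-0.07 ± 0.52, adjusted p = 0.903). Since 92.4% of all tested genes were called lower on that scale, the call does not set TBX21 apart.

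The machinery that moves and releases granules, which other secretory cells share, showed little of this step. Of 9 tested genes 3 were higher in parenchyma by limma and 6 did not pass, with a median log2 difference of -0.25. UNC13D, which primes granules for release, differed by 1.53 ± 0.21, STXBP2 by 0.78 ± 0.24 and RAB27A by 0.66 ± 0.23, and 1 of the 3 was called with heifers 3, 4 and 5 alone or without the far stroma of heifer 3. CTSC, the protease that activates granzymes, did not pass (-0.42 ± 0.17, adjusted p = 0.0568), but was called lower with the heifer as a block and without the parenchyma of heifer 3 or the far stroma of heifer 5.

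Receptors of the cytokines that sustain these cells, listed together with the cytokine IL15, were higher for 7 of 9 tested genes and lower for IL18R1 (median log2 2.35), which was not called in 4 of 21 alternatives. IL2RB, the beta chain shared by the receptors of interleukins 2 and 15, averaged 1053 ± 144 normalised counts in parenchyma, 538 ± 90.6 in close stroma and 80.6 ± 41.6 in far stroma (parenchyma against far stroma, log2 3.82 ± 0.29). The chain IL2RG differed by 2.35 ± 0.17, IL12RB1 by 2.65 ± 0.35 and IL15 itself by 1.85 ± 0.35. Of 15 residency and homing genes, 10 were higher and 2 lower (median log2 2.39). ITGAE, the integrin chain that binds T cells to epithelial cadherin, differed by 1.95 ± 0.23 and the chemokine receptor CXCR6 by 3.76 ± 0.45. The lower pair were S1PR1 (-1.82 ± 0.16) and KLF2 (-2.42 ± 0.28), which guide lymphocyte exit from tissues and are also made by endothelium. Blood endothelial markers were lower in parenchyma for 5 of 5, and their summed level was 5205 to 6902 in parenchyma and 20336 to 30326 in far stroma. The part of endothelium in the values of S1PR1 and KLF2 was not tested.

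Of 15 listed ligands of NK receptors only 7 were among the deposited genes, and 6 were tested. Higher in parenchyma than in far stroma were 3 of these 6, CADM1 (1.33 ± 0.23), CD48 (1.67 ± 0.31) and NECTIN2 (1.12 ± 0.22). Of all tested genes 26.1% were called higher in that comparison. CADM1 binds the receptor CRTAM and CD48 binds CD244. The NCR3 ligands BAG6 (-0.04) and NCR3LG1 (-0.27) did not pass. With library-total scaling BAG6 changed sign and passed narrowly (limma adjusted p = 0.0494), so that 4 ligands were higher. Among lists fixed for other cells, 4 of 4 tested B cell genes, 4 of 4 plasma cell genes and 5 of 5 genes of all leucocytes were higher in parenchyma than in far stroma, although the call of the plasma cell gene TNFRSF17 was lost in 7 of 20 alternatives. Of macrophage genes 2 of 6 and of mast cell genes 2 of 4 were lower. The call of CD14, one of the macrophage genes, was lost in 6 of 21 alternatives, and with library-total scaling 1 macrophage gene was higher (AIF1) and 1 lower. The 5 tested neutrophil genes did not pass with limma, while edgeR called 1 of them higher and DESeq2 2. Of 3 tested genes listed for gamma delta T cells, BLK (3.32) and SOX13 (1.04) were higher and MAF (-0.74) lower, the last not in 9 of 21 alternatives. The summed level of the 5 leucocyte genes was 10764 to 14683 in parenchyma, 7235 to 7389 in close stroma and 3256 to 5858 in far stroma, and its part in the results was not tested beyond the ratios given above.

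**Figure D4:**
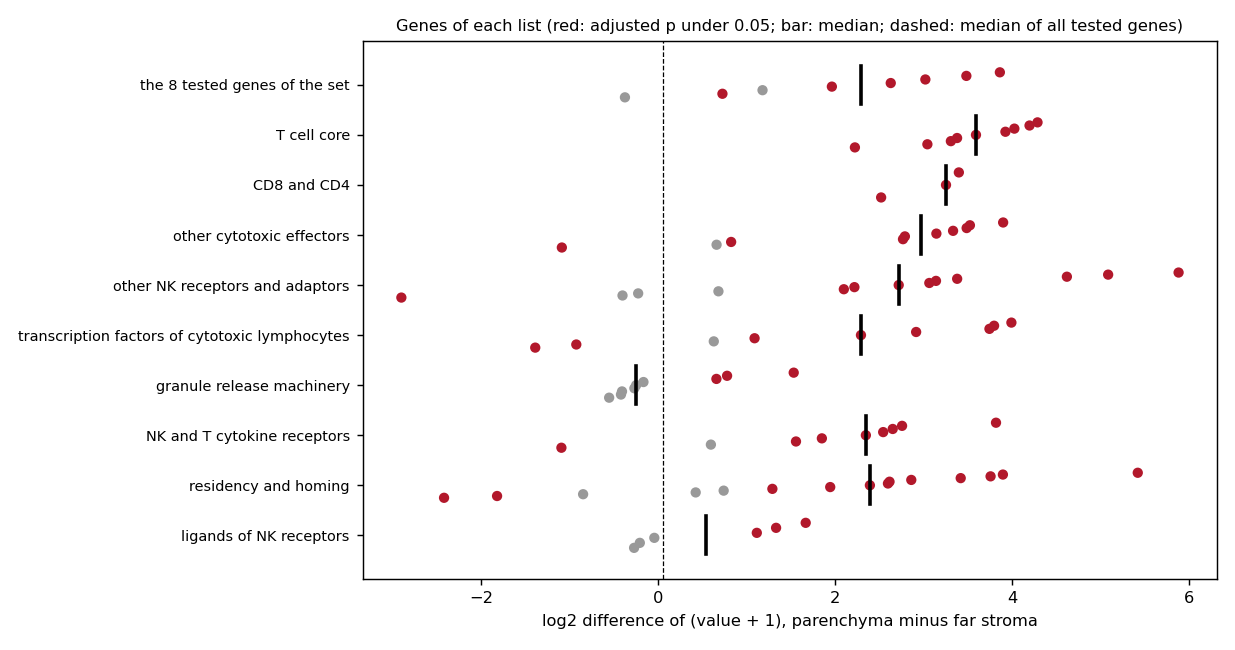
Log2 difference of (value + 1) between parenchyma and far stroma (horizontal axis) for each tested gene of the set and of 9 related lists, red where the adjusted p was under 0.05, with black bars for list medians and a dashed line for the median of all tested genes. The T cell core has the highest median at 3.59 and the granule release machinery the lowest at -0.25.

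The genes whose pattern over the 11 samples was most like that of PRF1 were APOBEC3H (Pearson r = 0.978), CD8A (0.974), CXCR3 (0.972), LAMP3 (0.97) and CXCL10 (0.968), of 11484 candidates with a symbol and a region mean of at least 50. Within the set, KLRK1 (0.925), CTSW (0.921) and GZMK (0.916) came closest to PRF1, followed by NKG7 (0.812), and GNLY (-0.31) and NCR1 (-0.04) were unlike it. Placed among the 11484 candidates, KLRK1 ranked 58, CTSW 73, GZMK 98 and NKG7 1056, so that many genes outside the set lay closer to PRF1. With region means removed, CD8A and SKIL came first (r = 0.937 each, n = 11). Within the set GZMK then had 0.801 (rank 166), KLRK1 0.735 (rank 492), CTSW 0.734 (rank 498) and NKG7 0.196 (rank 4161). These values are descriptions, since the samples share 4 animals, the regions and the scaling. For NCR1 the closest genes were ARHGAP17 and NMT1 (r = 0.783 each), WASHC5 (0.777), ANKRD13A (0.764) and TANGO6 (0.761), at 0 to 9 reads of NCR1 per sample.

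**Figure D5:**
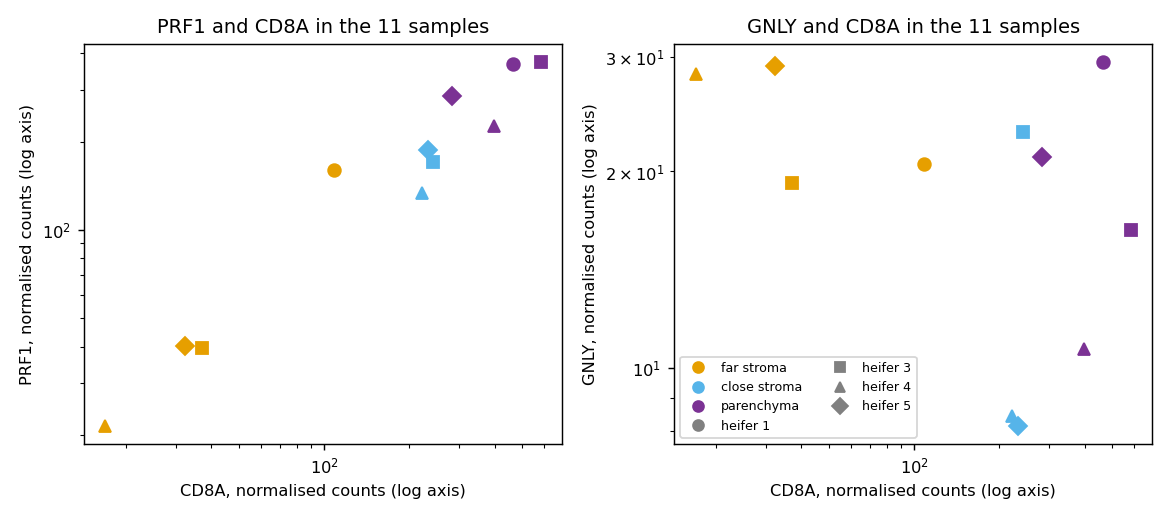
PRF1 (left) and GNLY (right) against CD8A in the 11 samples, normalised counts on log axes, with colours for regions and symbols for heifers. PRF1 climbs with CD8A from far stroma to parenchyma, with the far stroma of heifer 1 above the other far stroma samples and, for PRF1, within the range of close stroma, whereas GNLY spans 8.15 to 29.4 with no such climb.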

How the data were processed

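Per the labels, poly A RNA was sequenced from 11 samples of 4 heifers. Tools named in the submitters' processing notes are DESeq2, HTSeq, STAR and cutadapt, with the build ARS-UCD1.2, with no versions, settings or roles. The deposited signal per gene and sample is headed as normalised counts, per the file headers. Divided by each sample's smallest step, 100% of values were whole to within 0.01, and read counts were recovered from the deposited values in this way. The close stroma column of heifer 4 has an unexplained last letter in its name. A sheet of the authors' thresholds was not used.

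Tests were run on log2(value + 1) by limma 3.58.1 in R 4.3.3 (variance trend, 3 regions in 1 fit, highest region mean of at least 10, Benjamini-Hochberg adjustment). The recovered counts were tested with edgeR 4.0.16 and DESeq2 1.42.0 as alternatives. The scripts were tested on simulated data. Heifer numbers name animals and so pair samples: deviations from region means correlated at 0.117 to 0.383 in 10 pairs of the same heifer and at -0.349 to 0.224 in 30 pairs of different heifers. The fit without the heifer was the main one, so that its errors, intervals and p-values leave this pairing out. The fit with the heifer as a block was an alternative. That samples of different heifers came from separate animals is given by the labels.

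The genes of the set, the 20 lists (the set included) and the tests were chosen with earlier results of these data known. All genes of the set are named, with up to 4 genes of each list by smallest p between parenchyma and far stroma, 11 further genes (CD3E, CD8A, CD8B, CD4, TBX21, EOMES, KLRB1, IFNG, KRT8, PLIN1 and PTPRC) and the 5 closest patterns of PRF1 and NCR1. Any other gene was named after its values were seen. Gene overlaps and neighbours come from RefSeq on ARS-UCD2.0, by name only, for which 10 of 10 symbols matched. No sequences are shown. A pair of list genes, and a further T cell reference that used one of them, are not reported here.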

Additional observations from a re-analysis of the deposited data

Results flagged for a closer look

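In groups of 4 samples, a value was singled out when its gap to the nearest other sample exceeded Dixon's 95% critical share of the group's range. Chance does this in about 5% of groups of independent, normally distributed values. Over the set and 11 further genes 7 of 42 groups met it, but these groups share samples, so the share cannot be judged against 5%. A gene with reads in only 1 of 4 samples always meets it, as GZMB and IFNG did in far stroma. In far stroma, PRF1 was at 161 normalised counts in heifer 1 (39.6 the next), GZMB at 1.96 and IFNG at 1.96 in the same sample (2 reads each, 0 in the other 3 samples), and NCR3 at 28.8 in heifer 3, below the rest. In parenchyma, GZMK was at 215 in heifer 3 (56.2 the next), and KLRB1 at 9.80 and IFNG at 13.6 in heifer 1. The T cell genes were also highest in the far stroma of heifer 1 within that region. Their part in the PRF1 value was not tested.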

How the results depend on the processing

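Between parenchyma and far stroma, 5 or 6 genes of the set were higher and 0 lower under each of the 21 alternatives. Shares of all tested genes called are given for the main fits and the leucocyte reference only, so the other counts describe the set. GNLY, at -0.37, turned to 0.029 with library-total scaling. Between parenchyma and close stroma, edgeR with TMM or RLE scaling called 1 gene higher, DESeq2 2 and a pseudocount of 5 called 1 (0 in the main fit), with 0 to 2 when a sample was left out. GZMA, at -0.40 there, was at 0.48 and 0.50 with edgeR and 0.49 with DESeq2, and at -1.11 to 0.39 when a sample was left out. Between close and far stroma, edgeR called 1 gene higher with either scaling (4 in the main fit), with 1 to 5 higher and 0 to 1 lower when a sample was left out. With the replicate block of the heifer, 6 were higher there, and the block changed no call of the set in the other comparisons of levels. Relative to the T cell genes, parenchyma against far stroma, GZMK turned to 0.25 and CTSW to -0.24 with heifers 3, 4 and 5 alone. GZMK was at 0.16 with CD8 genes as the reference, and samples left out gave -0.94 to 0.032 for GZMK and -0.13 to 0.24 for CTSW. Against all-leucocyte genes 4 of the set were higher and 2 lower, with PRF1 at 1.05, GZMK at 1.90, NKG7 at 0.38 and KLRK1 at 1.44. Of all tested genes 7.29% were called higher and 76.3% lower there. Between close and far stroma 3 of the set were higher and 1 lower on that scale, against 6.31% and 49.2% of all tested genes. Pooled read ratios without the sample holding most reads were chosen after seeing the data. The causes were not tested. With a filter at 30, GZMA, GNLY and KLRK1 were not tested. At 0 to 15 reads per sample, GZMB and NCR1 are limited by depth.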

Other observations

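In parenchyma the balance of granzymes K and A differed between heifers. There the ratio of GZMK to GZMA was 86.0 per 100 in heifer 1, against 1100, 1259 and 3483 per 100 in heifers 3, 4 and 5. In close stroma it was 493, 210 and 271 per 100 in heifers 3, 4 and 5, and in far stroma 187, 120 and 0 per 100 in heifers 1, 3 and 4, heifer 5 having no GZMA read. Where it was seen, GZMA rested on 1 to 57 reads. In parenchyma KLRJ1 was at 24.1 normalised counts in heifer 1, 69.9 in heifer 3, 402 in heifer 4 and 43.0 in heifer 5, while CD3E lay between 1795 and 2331 in the same samples. The chemokine genes CXCL9 and CXCL10, whose products attract cells with the receptor CXCR3, ran from 148 to 1239 and from 318 to 857 normalised counts in parenchyma. These genes were picked after their values were seen, and none of the differences between heifers was tested.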
